A study of Homo sapiens with 12 samples.

Results

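RNAseq of 12 samples of SKBR-3 cells was used to follow 56 genes of mitosis and chromosome segregation. SKBR-3 is an established breast cancer line that carries an amplified HER2 gene and lacks the estrogen receptor, so the whole design rests on 1 line. The cells were transfected with a siRNA pool, either non-targeting (NT) or against FOXA1, a forkhead transcription factor of luminal cells, and then received DMSO or 300 nM lapatinib, an inhibitor of the HER2 and EGFR kinases, for 24 h. This gave 4 groups of 3 samples: control (NT siRNA and DMSO), lapatinib (NT siRNA and lapatinib), FOXA1 siRNA (FOXA1 siRNA and DMSO) and combined (FOXA1 siRNA and lapatinib). The labels put 48 h of siRNA before the drug, whereas the methods of the study put 24 h. All groups went through transfection, and no untransfected cells were analysed here. The 56 genes were taken by symbol from a list of mitotic regulators. Each of the 56 was found among the 20531 genes of the deposited tables, and each passed the filter on low counts in every comparison.

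In background terms, mitosis is driven by CDK1 bound to a B-type cyclin, which CDC25 phosphatases switch on and which kinases of the Polo and Aurora families act beside. Chromosomes are compacted by condensin and untangled by topoisomerase II, are held to spindle microtubules by the kinetochore, and are moved by kinesins, while the spindle checkpoint restrains CDC20 and the anaphase-promoting complex until each chromosome is attached. Most of these genes are transcribed in late S phase, G2 and mitosis, when B-MYB (MYBL2) and FOXM1 act with the MuvB complex at promoters that carry a CHR (cell cycle genes homology region) and CCAAT boxes, so their mRNA level in a culture follows the share of cycling cells.

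FOXA1 mRNA was at 8446, 8308 and 8767 normalized counts in the control samples and at 1160, 1362 and 1564 with FOXA1 siRNA, and at 12672, 12168 and 13177 in lapatinib against 1642, 1889 and 2384 in the combined group. A normalized count is the expected (estimated) read count of a gene scaled to the mean depth of the 12 libraries, which held between 25749578 and 32271850 expected counts each. The targeted gene was lower in each of the 6 libraries labelled FOXA1 siRNA than in any other library. The 6 markers of HER2-amplified luminal cells (ERBB2, GRB7, KRT8, KRT18, KRT19 and EPCAM) summed to between 12361 and 19428 TPM (a level per transcript length, scaled to the library) in each library. The 8 markers of blood, fibroblasts and endothelium summed to between 4.02 and 7.14 TPM, and 7 of the 8 stayed under 1 TPM in every library. ESR1, the estrogen receptor gene, had between 12 and 42 expected counts and CDH1 between 2 and 19.

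The replicate numbers of the labels mattered for the mitotic genes. In the lapatinib group replicate 2 was the highest of the 3 samples for 54 of the 56 genes, and in the combined group for 55 of 56. In the control group replicate 2 was instead the lowest for 54 of 56, and with FOXA1 siRNA alone for 30 of 56. Over all genes tested replicate 2 was the highest in 39.7% of genes in the lapatinib group and in 37.9% in the combined group, and the lowest in 44.9% in the control group. Counts of called genes are therefore given with and without replicate 2 where they differ, and the labels do not say what a replicate number stands for.

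Summed over the 56 genes, the level was 5119, 4303 and 5106 TPM in the control samples, 1563, 2497 and 1759 TPM with lapatinib, 4187, 3780 and 3803 TPM with FOXA1 siRNA and 2255, 2946 and 2159 TPM in the combined group. The means were 4843 ± 468 (SD, n = 3), 1940 ± 493, 3924 ± 229 and 2453 ± 430 TPM in that order. Thus the control samples were the highest and the lapatinib samples were on average the lowest. The groups with drug did not overlap the groups without it, and the lapatinib and combined groups overlapped each other. In bulk RNA, fewer cells in G2 and mitosis and less of these mRNAs per cell cannot be told apart.

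Levels per transcript length in the control group ran from 9.57 ± 1.11 TPM for CDC25C to 383 ± 49.6 TPM for TOP2A (topoisomerase II alpha), with a median of 54.8 TPM over the 56 genes. After TOP2A the order was UBE2C at 284 ± 47.6, ZWINT at 277 ± 38.2 and AURKA at 245 ± 19.5 TPM, and these 3 neighbors differed by less than the sum of their SDs. The lowest levels beside CDC25C were those of the kinesins KIF14 (12.8 ± 1.64 TPM) and KIF18A (13.5 ± 1.42 TPM) and of NDC80 (17.9 ± 2.29 TPM), of which KIF14 and KIF18A also lay within 1 SD of each other.

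Promoter sequence is shown because the members moved together. RefSeq promoters (GRCh38.p14, 250 bases before to 50 after the start site) were matched for 48 of the 56 genes by gene ID. AURKA, TTK, PBK, BUB3, BIRC5, UBE2C, TPX2 and FOXM1 were not matched. The letters of a CHR (TTTGAA or TTCGAA), searched on both strands, were in 33 of the 48 promoters (68.75%), against 16.62% of 27305 RefSeq promoters and 11.43% of the 10856 promoters of genes tested here. CCAAT on either strand was in 34 of 48 (70.83%), against 35.7% and 36.74%, and 26 of 48 held both (54.17%), against 6.581% and 4.827%. An E2F-type stretch, GGCGGGA, was in 12 of 48 (25%), against 15.49% and 25.16%. Forkhead letters (GTAAACA or GTCAACA) were in 1 promoter, that of CDK1 (2.083%), against 5.673% and 3.712%. A match of letters is a description and not a bound site. A single start site was used for each gene, and for some, such as SMC2 and CKAP2, it was not the outermost. Genes with several start sites could score otherwise with another window.

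The 42 CHR matches had a median position of -27 bases from the start site, and 32 of them lay within 100 bases of it. Of the genes with a CHR, 7 of 8 spindle and cytokinesis promoters, 6 of 8 centromere and kinetochore promoters, 5 of 7 kinesin promoters and 5 of 6 condensin and topoisomerase promoters held one, and 2 of 5 promoters of mitotic kinases did. Motifs overlapped in 1 promoter. The median log2 fold change after lapatinib with NT siRNA was -1.28 for genes with CHR letters and -1.10 for genes without, and -1.24 and -1.29 for those with and without CCAAT.

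**Figure D1:**
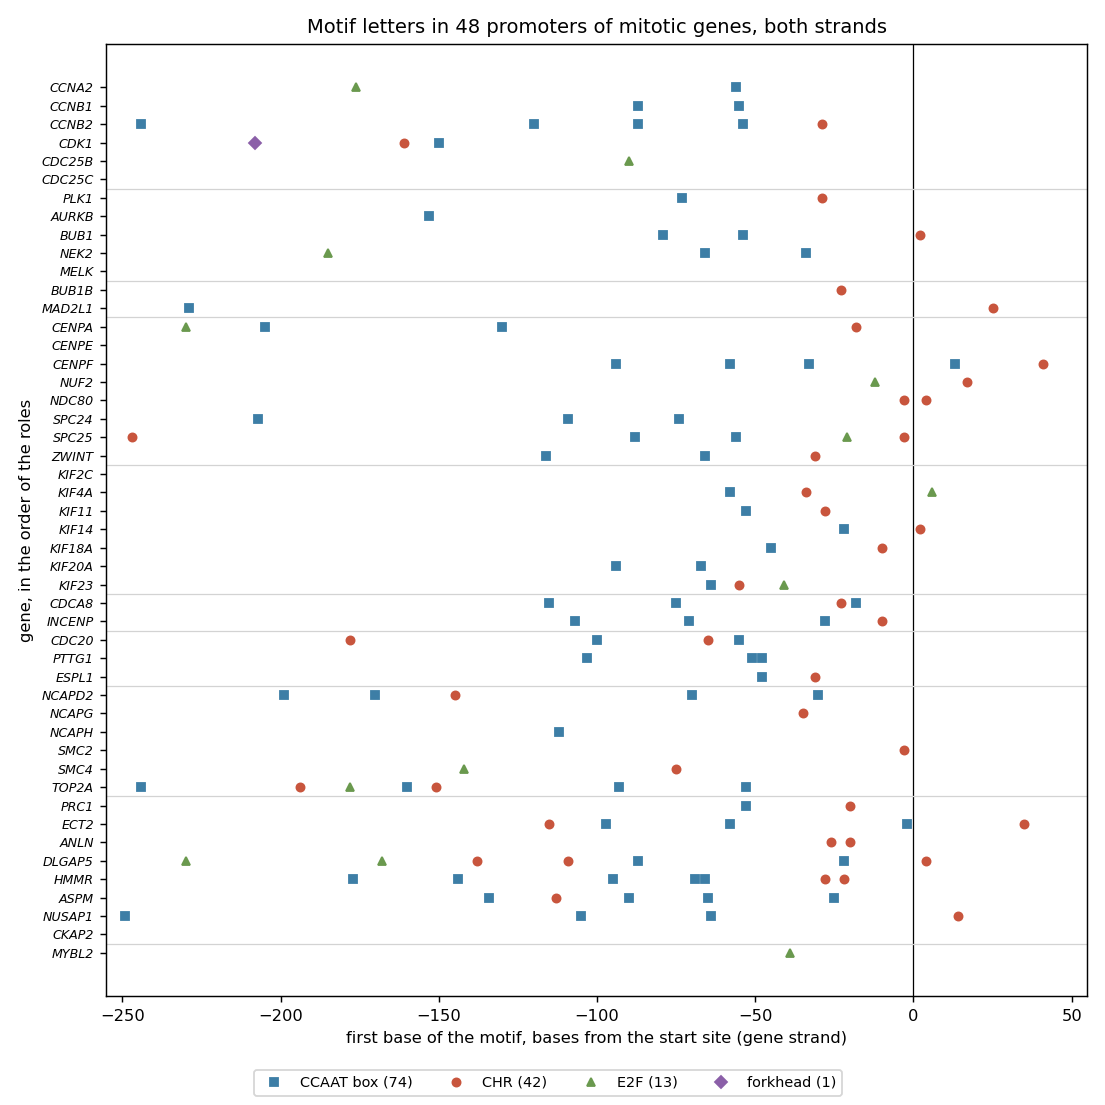
Positions of 4 kinds of motif letters in the 48 matched promoters, with a row for each gene in the order of the roles, with the distance of the first base of the motif from the start site in bases on the x axis. CHR matches gather just before the start site with a median of -27 bases, CCAAT boxes lie mostly further upstream, and the single forkhead match is in CDK1.

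The promoters of 5 genes are printed here, 5′ to 3′ on the strand of the gene, with the letters of the 4 motifs in capitals. CCNB2 (chr15:59104896-59105195, plus strand) carries repeated CCAAT boxes and a CHR. CDK1 (chr10:60778081-60778380, plus strand) holds the single forkhead match and is the gene whose lapatinib response differed most between the siRNAs. Whether the match and the response are linked was not tested. PLK1 (chr16:23678639-23678938, plus strand) and MAD2L1 (chr4:120066799-120067098, minus strand, with CCAAT read on the other strand as ATTGG) both rose with FOXA1 siRNA under lapatinib. MYBL2 (chr20:43666864-43667163, plus strand) fell most after lapatinib and has E2F letters with neither CHR nor CCAAT.
CCNB2: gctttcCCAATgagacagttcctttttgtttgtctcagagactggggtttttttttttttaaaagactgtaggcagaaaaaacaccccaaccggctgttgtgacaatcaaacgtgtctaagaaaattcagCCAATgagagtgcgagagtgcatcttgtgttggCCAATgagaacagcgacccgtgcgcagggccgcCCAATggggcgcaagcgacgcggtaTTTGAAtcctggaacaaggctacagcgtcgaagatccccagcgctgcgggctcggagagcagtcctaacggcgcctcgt
CDK1: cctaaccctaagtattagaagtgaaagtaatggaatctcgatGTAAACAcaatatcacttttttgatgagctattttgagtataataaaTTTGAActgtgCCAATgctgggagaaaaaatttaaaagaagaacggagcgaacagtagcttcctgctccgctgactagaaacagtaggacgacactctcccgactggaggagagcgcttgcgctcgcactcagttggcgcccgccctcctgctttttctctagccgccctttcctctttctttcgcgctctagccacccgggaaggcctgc
PLK1: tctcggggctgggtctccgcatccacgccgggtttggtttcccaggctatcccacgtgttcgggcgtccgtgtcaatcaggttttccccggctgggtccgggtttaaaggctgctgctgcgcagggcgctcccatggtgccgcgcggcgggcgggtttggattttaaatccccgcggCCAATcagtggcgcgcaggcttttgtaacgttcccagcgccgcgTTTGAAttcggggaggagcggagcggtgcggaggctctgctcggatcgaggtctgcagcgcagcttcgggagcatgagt
MAD2L1: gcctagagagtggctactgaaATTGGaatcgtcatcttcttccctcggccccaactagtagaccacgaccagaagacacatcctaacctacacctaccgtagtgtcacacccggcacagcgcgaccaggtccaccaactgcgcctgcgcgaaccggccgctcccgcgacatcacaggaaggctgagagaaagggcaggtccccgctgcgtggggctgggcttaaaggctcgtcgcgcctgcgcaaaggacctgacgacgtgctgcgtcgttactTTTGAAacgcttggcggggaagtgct
MYBL2: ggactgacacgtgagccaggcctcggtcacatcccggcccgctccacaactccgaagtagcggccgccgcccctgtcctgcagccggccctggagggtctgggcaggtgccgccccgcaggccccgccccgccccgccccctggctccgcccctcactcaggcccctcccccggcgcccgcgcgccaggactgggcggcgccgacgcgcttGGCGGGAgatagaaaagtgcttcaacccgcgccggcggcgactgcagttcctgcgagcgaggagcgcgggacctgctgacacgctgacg

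The first question was what HER2 inhibition did to these genes with NT siRNA. After lapatinib 54 of the 56 genes were lower and 0 were higher, by edgeR, by DESeq2 and at an unadjusted p under 0.05 alike, with a median log2 fold change of -1.28, and 39 fell at least 2-fold. Over all 13713 genes tested the median was 0.03, 29.2% were called lower, 30.5% higher, and 7.13% were called lower by at least 2-fold. A gene was called at an adjusted p under 0.05, from the quasi-likelihood test of edgeR with the adjustment of Benjamini and Hochberg over all genes tested. The exceptions were both CDC25 phosphatases, CDC25B (log2 fold change 0.02 ± 0.09 (SE), edgeR adjusted p = 0.874) and CDC25C (-0.38 ± 0.20, edgeR adjusted p = 0.128). The count was 55 without replicate 2, against 34.1% of all genes, and between 50 and 55 with each sample left out in turn, where CENPE, CENPF, HMMR and KIF20A lost their call in at least 1 fit.

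The second question was what the same drug did after FOXA1 siRNA. There 48 of the 56 genes fell and 1 rose, against 29.1% of all genes called lower and 29% called higher, with a median log2 fold change of -0.64. Of these, 13 fell at least 2-fold, against 5.12% of all genes. Without replicate 2 the count of lower genes was 53, against 30.7% of all genes. With single samples left out it ran from 37 to 52, and 38 of the 49 calls were kept in each of those fits. For each of the 56 genes the log2 fold change lay nearer 0, or above it, when FOXA1 had been targeted, a comparison tested as an interaction further on. The 2 responses come from separate samples.

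**Figure D2:**
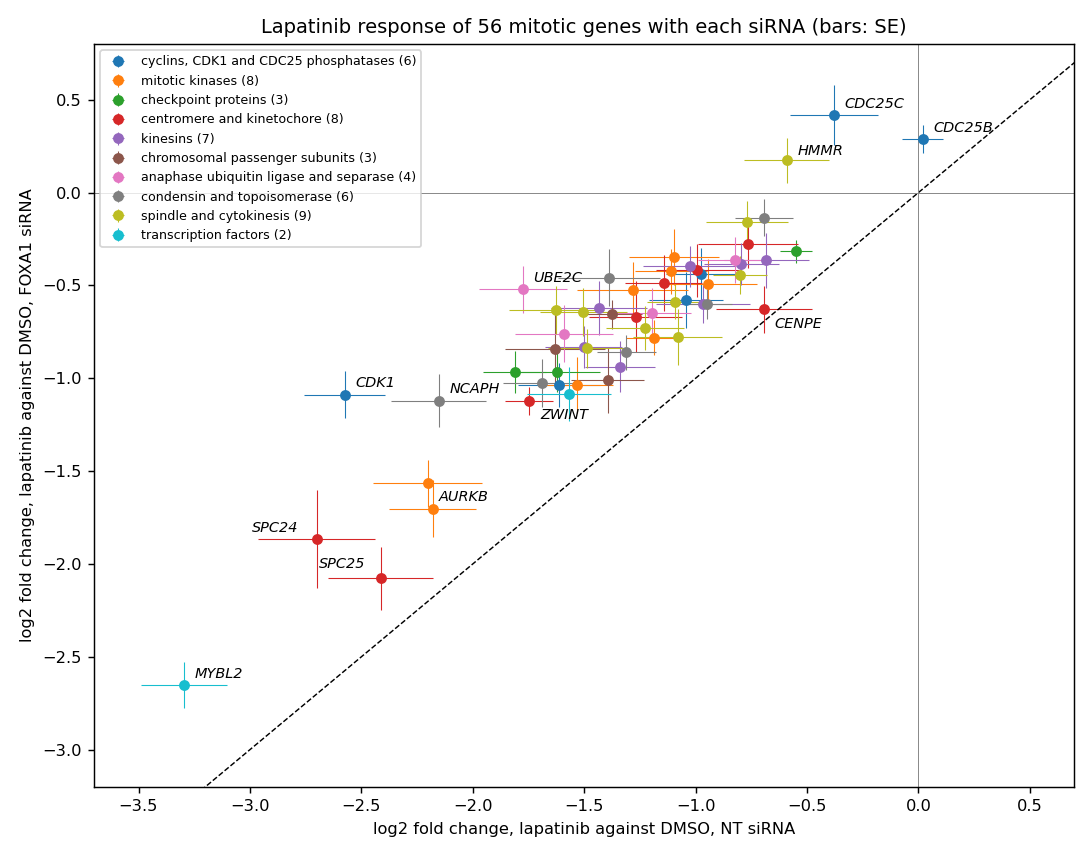
Log2 fold change of the 56 genes after lapatinib with NT siRNA (x axis) and with FOXA1 siRNA (y axis), with bars for the SE, colors for the role and a dashed line where both would be equal. All 56 points lie above the line, MYBL2 is the lowest on both axes, and CDC25B, CDC25C and HMMR are above 0 on the y axis.

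By role, the median log2 fold change after lapatinib with NT siRNA was -1.23 for the 8 mitotic kinases, -1.21 for the 8 centromere and kinetochore genes, -1.03 for the 7 kinesins and -1.35 for the 6 condensin and topoisomerase genes. The ranges overlapped widely: -2.20 to -0.94 for the kinases, -2.70 to -0.69 for the kinetochore, -1.50 to -0.68 for the kinesins and -2.15 to -0.69 for condensin and topoisomerase. With FOXA1 siRNA the same 4 medians were -0.65, -0.65, -0.60 and -0.73. The 2 transcription factors had the lowest median (-2.43 with NT siRNA and -1.87 with FOXA1 siRNA), and the cyclins, CDK1 and CDC25 phosphatases the highest with both (-1.01 and -0.51). Genes of a role are not replicates, so these medians were not tested against each other.

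**Figure D3:**
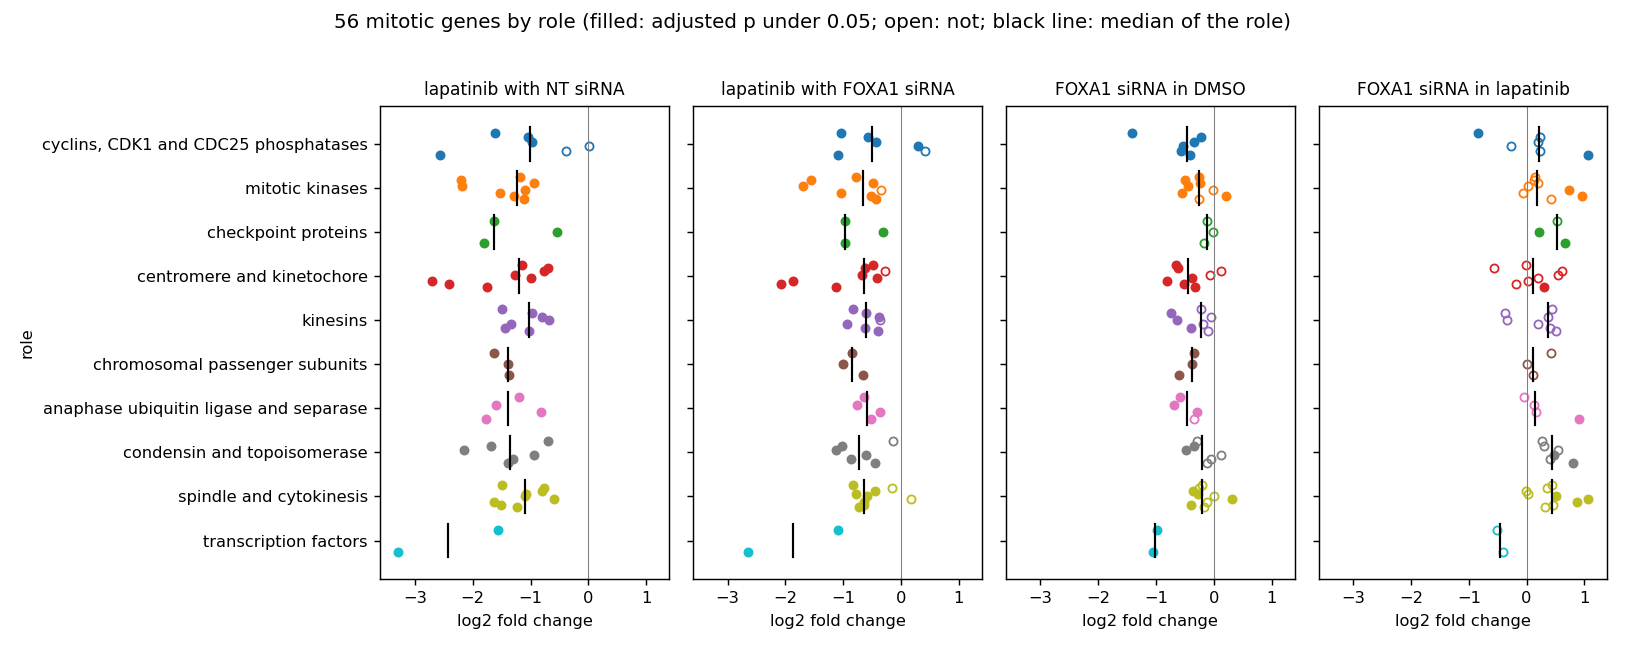
Log2 fold change of the 56 genes by role in 4 comparisons, with filled points for an adjusted p under 0.05, open points for the others and a black line at the median of the role. The points lie left of 0 after lapatinib in nearly all roles, with 54 and 48 genes called lower, and move to the right of 0 for most roles when FOXA1 siRNA is compared with NT siRNA under lapatinib.

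Among the cyclins, CCNB1, the main cyclin of mitosis, stood at 4107, 3795 and 3952 normalized counts in the control samples and 1491, 2501 and 1672 with lapatinib, and at 3311, 3694 and 3007 with FOXA1 siRNA and 1962, 2817 and 1881 in the combined group. Drug and vehicle did not overlap with either siRNA, and both drug groups had their highest value in replicate 2. The log2 fold change was -1.04 ± 0.16 (SE; edgeR adjusted p = 0.000745) with NT siRNA and -0.58 ± 0.15 (0.00997) with FOXA1 siRNA.

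CDK1, the mitotic kinase itself, went from 7215, 5049 and 7233 to 883, 1349.8 and 983 with NT siRNA, and from 5437, 4204 and 4884 to 2039.6, 2685 and 2066 with FOXA1 siRNA. All 3 combined samples lay above all 3 lapatinib samples. The log2 fold change was -2.58 ± 0.18 (edgeR adjusted p = 1.16e-05) against -1.09 ± 0.13 (0.000153). CCNA2, the cyclin of S and G2 phase, had 4053, 3052 and 3718 counts in control, 915, 1538 and 1021 with lapatinib, 1423, 1363 and 1243 with FOXA1 siRNA and 620, 779 and 552 with both. It was lower with FOXA1 siRNA both ways, with log2 fold changes of -1.41 ± 0.10 in DMSO (edgeR adjusted p = 3.96e-05) and -0.84 ± 0.20 in lapatinib (0.0101).

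CDC25C, a phosphatase that activates CDK1, had 334, 275 and 296 counts in control, 160.5, 295 and 227 with lapatinib, 222, 198 and 188 with FOXA1 siRNA and 221, 336 and 249 with both. Vehicle and drug overlapped with each siRNA, and with FOXA1 siRNA 2 of the 3 drug samples were above all vehicle samples (0.42 ± 0.16, edgeR adjusted p = 0.0558, and 0.0268 when the replicate number was a block). Its paralog CDC25B was at 9548, 9759 and 9965 in control and 8390, 11168 and 9659 with lapatinib, groups that overlapped, and it rose after lapatinib with FOXA1 siRNA, from 6351, 7226 and 6474 to 7252, 8671 and 8408 counts (0.29 ± 0.08, edgeR adjusted p = 0.0114).

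All 8 mitotic kinases fell after lapatinib with NT siRNA, against 29.2% of all genes called lower. With FOXA1 siRNA 7 of 8 fell, against 29.1%. There NEK2, a centrosome kinase, was at -0.35 ± 0.15 (edgeR adjusted p = 0.0776, and 0.0181 with the replicate block). PLK1, which acts at entry into and exit from mitosis, had 2773, 2454 and 2547 counts in control and 700.3, 1571 and 871 with lapatinib, against 3125, 3034 and 2781 and 1769, 2660.2 and 1751 with FOXA1 siRNA. Each vehicle sample was above the drug samples of its siRNA, and each combined sample was above the lapatinib samples, the closest of which was replicate 2. The log2 fold change was -1.28 ± 0.25 (edgeR adjusted p = 0.00229) and -0.52 ± 0.15 (0.0166).

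AURKA, the spindle pole kinase, fell from 9076, 7506 and 8855 to 3019.8, 4395 and 3585 with NT siRNA and from 7317, 7115 and 6775 to 3922, 4743 and 3593 with FOXA1 siRNA. The 2 drug groups overlapped, with changes of -1.19 ± 0.13 (edgeR adjusted p = 8.67e-05) and -0.78 ± 0.09 (0.000182). The pseudogene AURKAPS1, which shares sequence with AURKA, had between 143 and 406 expected counts, so the split of reads between them is uncertain. AURKB, the kinase of the chromosomal passenger complex, was far lower with drug, at 103, 215 and 117 counts against 790.1, 595 and 663 in control and at 149, 186 and 146 against 529, 475 and 434 with FOXA1 siRNA. These were changes of -2.20 ± 0.25 (edgeR adjusted p = 0.000107) and -1.57 ± 0.13 (2.54e-05).

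BUB1, TTK, PBK and MELK, kinases of the checkpoint and of the cell cycle, had log2 fold changes of -0.94, -1.11, -1.53 and -2.18 with NT siRNA and of -0.49, -0.43, -1.04 and -1.70 with FOXA1 siRNA.

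In the spindle checkpoint, BUB1B, which encodes BubR1, stood at 2484, 1939.5 and 2301 counts in control, 545, 971 and 629 with lapatinib, 2293, 1841 and 2012 with FOXA1 siRNA and 999, 1191 and 933 with both. Drug and vehicle were apart with each siRNA, and replicate 2 of the lapatinib group overlapped the combined group. The change was -1.62 ± 0.19 with NT siRNA (edgeR adjusted p = 0.000156) and -0.97 ± 0.11 with FOXA1 siRNA (0.000133).

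MAD2L1 encodes MAD2, which binds and restrains CDC20. It dropped from 1721, 1527 and 1666 to 396, 581 and 398 counts with NT siRNA and from 1569, 1414 and 1334 to 701, 862 and 633 with FOXA1 siRNA. The combined samples were all above the lapatinib samples. The log2 fold change was -1.81 ± 0.14 (edgeR adjusted p = 1.79e-05) against -0.97 ± 0.11 (0.000175). BUB3, the checkpoint protein that carries BUB1 and BUB1B to kinetochores, moved least of the 3, from 3626, 3132 and 3596 to 2246, 2505 and 2221 (-0.55 ± 0.07, edgeR adjusted p = 0.000262) and from 3474, 3279.9 and 3382 to 2572, 2928 and 2593 (-0.32 ± 0.06, 0.00228).

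All 8 centromere and kinetochore genes fell after lapatinib with NT siRNA, against 29.2% of all genes called lower. With FOXA1 siRNA, where 29.1% of all genes were lower, all fell but CENPF (-0.28 ± 0.13, edgeR adjusted p = 0.0974, and 0.0421 with the replicate block). The extremes were 2 subunits of the NDC80 complex, which grips microtubules. SPC24 was at 209, 176 and 187 counts in control and 17.8, 42.7 and 24.6 with lapatinib, and SPC25 at 788, 491 and 692 and 96.3, 165 and 101. Their log2 fold changes were -2.70 ± 0.26 and -2.41 ± 0.24 with NT siRNA and -1.87 ± 0.27 and -2.08 ± 0.17 with FOXA1 siRNA, while the other 2 subunits, NDC80 and NUF2, were at -1.27 and -0.99, and at -0.67 and -0.42.

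NDC80 itself had 664, 511 and 670.1 counts in control, 176, 334 and 240.1 with lapatinib, 683, 471 and 601 with FOXA1 siRNA and 319, 470 and 307 with both. In the FOXA1 siRNA groups the lowest vehicle sample and the highest drug sample, both replicate 2, were 471 and 470 counts, so the groups nearly touched (edgeR adjusted p = 0.0156). CENPA, the histone H3 variant of centromeres, fell from 981, 827 and 942 to 308, 529.8 and 385 (-1.14 ± 0.17, edgeR adjusted p = 0.000568) and from 623, 571 and 536 to 339, 517 and 369.5 (-0.49 ± 0.15, 0.0238). The means of its lapatinib and combined groups were 407 ± 113 and 408 ± 95.3 counts (SD, n = 3).

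CENPE, a kinetochore motor, had the smallest difference between the siRNAs among the 56 genes. It went from 3241, 3248 and 3493 to 1412, 2883 and 1779 with NT siRNA and from 2127, 2263 and 2069 to 1259.5, 1709.7 and 1179 with FOXA1 siRNA. The changes were -0.69 ± 0.22 (edgeR adjusted p = 0.0224) and -0.63 ± 0.13 (0.00296). Replicate 2 of the lapatinib group, at 2883 counts, lay far above the other 2 samples.

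ZWINT, a scaffold of the outer kinetochore, went from 7679.9, 5889 and 7939 to 1936, 2171 and 2199.7 with NT siRNA and from 6115, 5239 and 5699 to 2463, 2818 and 2509.8 with FOXA1 siRNA. All 3 combined samples lay above all 3 lapatinib samples, and the groups without drug overlapped. The changes were -1.75 ± 0.11 (edgeR adjusted p = 6.96e-06) and -1.12 ± 0.07 (1.06e-05).

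Of the kinesins, KIF11, the motor that pushes spindle poles apart, was at 3043, 2397 and 2999.7 counts in control and 776, 1277 and 876 with lapatinib, and at 2588, 2255 and 2328 and 1225, 1589.6 and 1190.4 with FOXA1 siRNA. Vehicle and drug did not overlap. The log2 fold change was -1.50 ± 0.17 (edgeR adjusted p = 0.000130) and -0.83 ± 0.11 (0.000343). KIF20A, a motor of cytokinesis, went from 2557, 2151 and 2442 to 1075, 1980 and 1328 (-0.68 ± 0.19, edgeR adjusted p = 0.0137) and from 1625, 1485 and 1423 to 1021, 1491 and 986 (-0.36 ± 0.15, 0.0637, and 0.0137 with the replicate block). In the second pair replicate 2 of the combined group lay among the vehicle samples.

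KIF18A, which dampens chromosome movement, fell from 841, 648 and 761 to 328, 534 and 412 (-0.80 ± 0.17, edgeR adjusted p = 0.00353) and from 765, 705 and 698 to 524, 647 and 479 (-0.38 ± 0.11, 0.0171). For KIF2C, KIF23, KIF4A and KIF14 the changes with NT siRNA were -1.43, -1.34, -1.03 and -0.97, and with FOXA1 siRNA -0.62, -0.94, -0.40 and -0.60. KIF4A has a near-identical copy, KIF4B, listed at means of 329 counts in control and 179 with lapatinib, so the share of reads given to each is uncertain.

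The chromosomal passenger subunit CDCA8 (borealin) had 1701, 1413 and 1708 counts in control, 467, 773 and 561 with lapatinib, 1315, 1207 and 1160.3 with FOXA1 siRNA and 508, 812 and 491 with both, with changes of -1.40 ± 0.16 (edgeR adjusted p = 0.000149) and -1.01 ± 0.18 (0.00138). INCENP, the scaffold of the complex, was at 2659, 2057 and 2626, 791, 1107 and 885, 1688, 1456 and 1633 and 949, 1096 and 969 in the same order. FOXA1 siRNA alone put all 3 of its samples below the control samples, and the 2 drug groups overlapped (-1.38 ± 0.13, edgeR adjusted p = 5.48e-05, and -0.66 ± 0.08, 0.000205). BIRC5 (survivin) went from 2352, 1718 and 2166 to 483, 932 and 561 (-1.63 ± 0.22, edgeR adjusted p = 0.000350) and from 1809.6, 1561 and 1473 to 786, 1225 and 670.4 (-0.84 ± 0.20, 0.00656).

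CDC20, the activator of the anaphase-promoting complex, fell from 3593, 3253 and 3281 to 1137, 1952 and 1256 (-1.20 ± 0.18, edgeR adjusted p = 0.000495) and from 2163, 2430.4 and 2123 to 1203, 1766 and 1289 (-0.65 ± 0.13, 0.00345). UBE2C, the ubiquitin-conjugating enzyme of that complex, was at 3927, 2698 and 3671 in control, 795, 1302 and 856 with lapatinib, 2977, 2409 and 2627 with FOXA1 siRNA and 1751, 2211 and 1582 with both. The 3 combined samples were all above the 3 lapatinib samples (-1.78 ± 0.20, edgeR adjusted p = 0.000106, against -0.52 ± 0.13, 0.00727).

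ESPL1 (separase), which cuts cohesin at anaphase, dropped from 2763, 1938 and 2766 to 589, 1099 and 745 (-1.59 ± 0.22, edgeR adjusted p = 0.000348) and from 1697, 1324 and 1554 to 838, 1118 and 728 (-0.76 ± 0.15, 0.00317). PTTG1 (securin), its inhibitor, changed by -0.82 ± 0.16 and -0.36 ± 0.12. The related gene PTTG2 had at most 8 expected counts in any library, so it took few reads.

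The condensin subunits fell by different amounts. NCAPD2 was at 5845, 4172 and 5308 counts in control, 2789, 3603 and 2929 with lapatinib, 4674, 3706 and 4039 with FOXA1 siRNA and 3671, 4183 and 3383 with both. It changed by -0.69 ± 0.13 with NT siRNA (edgeR adjusted p = 0.00190), and with FOXA1 siRNA the groups overlapped (-0.14 ± 0.10, edgeR adjusted p = 0.276). NCAPH, the kleisin subunit that closes the ring, went from 1936, 1529 and 1821 to 284, 546 and 335 and from 1267, 1318 and 1173 to 493, 725 and 498, changes of -2.15 ± 0.21 and -1.12 ± 0.14.

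SMC4, a core ATPase of condensin, fell from 12963, 11026 and 13273 to 4177, 6073 and 4547 (-1.31 ± 0.13, edgeR adjusted p = 6.31e-05) and from 12609, 11250.4 and 12031 to 6236, 7584 and 5847 (-0.86 ± 0.09, 0.000111). Its partner SMC2 had the tightest drug groups, with 1867, 1826 and 1995 counts in lapatinib and 2639, 2678 and 2611 in the combined group, and changed by -0.95 ± 0.11 and -0.60 ± 0.08. TOP2A, which untangles sister chromatids, was at 37021, 26950.3 and 35128 in control and 9077, 17571 and 10621 with lapatinib (-1.39 ± 0.23, edgeR adjusted p = 0.000938), and at 33929.9, 26868 and 29599.5 and 19458, 27635 and 18354 with FOXA1 siRNA (-0.46 ± 0.15, 0.0301). There replicate 2 showed no fall, with 26868 counts in vehicle and 27635 in drug, while replicates 1 and 3 did.

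Among the spindle genes, TPX2, which builds microtubules and activates AURKA, fell from 5359, 4406 and 5252 to 1597, 2758 and 1959.6 (-1.23 ± 0.17, edgeR adjusted p = 0.000414) and from 4623, 4288 and 4295 to 2383, 3239 and 2298 (-0.73 ± 0.12, 0.00105). CKAP2, a microtubule-associated protein, went from 4633, 3939 and 4667 to 2085, 2989 and 2413 (-0.80 ± 0.12, 0.000625) and from 3661, 3269 and 3349 to 2296, 2938 and 2273 (-0.44 ± 0.10, 0.00538). Both were lower in each drug sample than in any vehicle sample of the same siRNA.

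HMMR, a hyaluronan receptor that also binds the spindle, was the gene with the highest combined samples relative to control. It had 1005, 803 and 970.2 counts in control, 473, 818 and 522 with lapatinib, 1221, 1045 and 1155 with FOXA1 siRNA and 1161, 1543 and 1127 with both. The combined samples were the highest on average and all above the control and lapatinib samples. Lapatinib lowered it with NT siRNA (-0.59 ± 0.19, edgeR adjusted p = 0.0259), a call lost when NT DMSO replicate 1 or 3 or NT lapatinib replicate 1 or 3 was left out, and with FOXA1 siRNA the change was 0.17 ± 0.12 (edgeR adjusted p = 0.256). ASPM, a spindle pole protein, was likewise not called there (-0.16 ± 0.11, edgeR adjusted p = 0.268).

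The transcription factor MYBL2 (B-MYB), whose promoter with E2F letters is given above, had the largest fall of the 56, from 10856, 7864 and 10156 to 768, 1268 and 854 counts with NT siRNA and from 5114, 4390 and 4342 to 686, 876 and 626 with FOXA1 siRNA. The log2 fold change was -3.30 ± 0.19 (edgeR adjusted p = 5.61e-06) and -2.65 ± 0.12 (3.03e-06). FOXM1, a forkhead factor of G2 and mitosis, dropped from 4810.2, 3562 and 4896 to 1159, 1927 and 1317 (-1.57 ± 0.19, edgeR adjusted p = 0.000164) and from 2420.1, 2053 and 2185 to 894, 1314 and 909 (-1.09 ± 0.14, 0.000325). FOXA1 siRNA alone also placed both genes below every control sample.

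**Figure D4:**
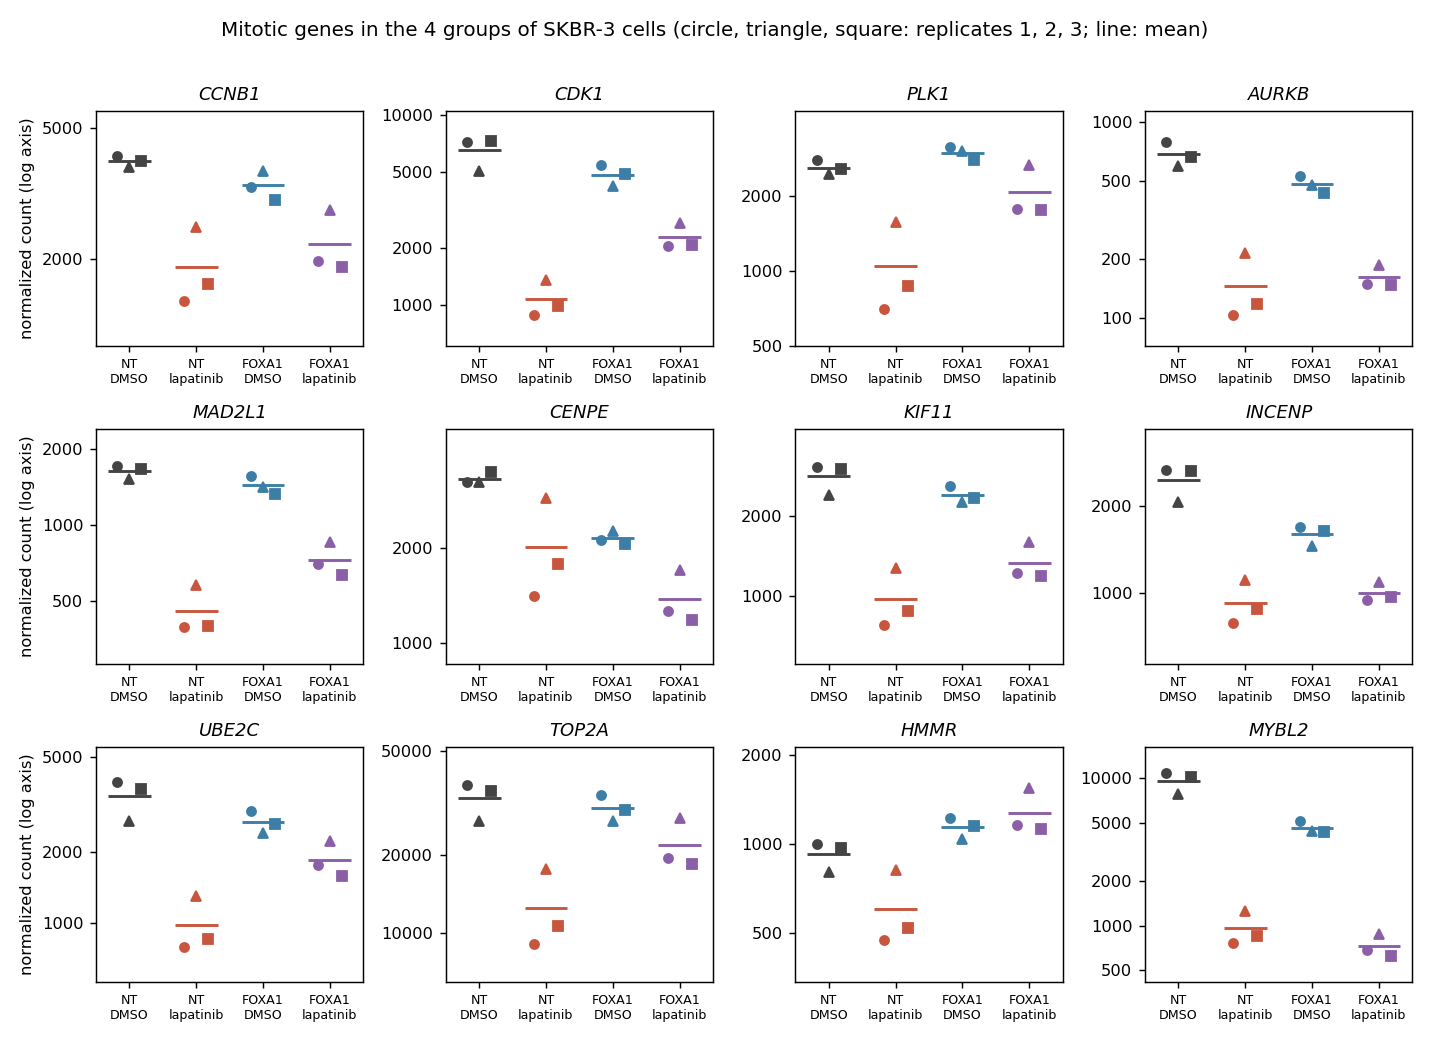
Normalized counts (log axis) of 12 genes in each of the 12 samples, with circles, triangles and squares for replicates 1, 2 and 3 and a line at the group mean. The triangles are the highest points of the lapatinib and combined groups in each panel, and in CDK1, PLK1, MAD2L1, UBE2C, TOP2A and HMMR all combined samples lie above all lapatinib samples.

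The third question was what FOXA1 siRNA did without the drug. In DMSO 33 of the 56 genes were lower and 2 were higher, with a median log2 fold change of -0.33, against 21.3% of all genes lower, 21.9% higher and a median of -0.01. Only 2 fell by at least 2-fold, CCNA2 (-1.41 ± 0.10) and MYBL2 (-1.05 ± 0.11, edgeR adjusted p = 0.000291), and FOXM1 came next (-0.98 ± 0.12, edgeR adjusted p = 0.000440). The higher genes were PLK1 (0.21 ± 0.06, edgeR adjusted p = 0.0247) and HMMR (0.31 ± 0.09, 0.0284), and each lost its call in 3 of the fits that left out 1 sample.

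All 6 cyclin, CDK1 and CDC25 genes, 5 of 8 mitotic kinases, 6 of 8 centromere and kinetochore genes, all 3 passenger subunits and 3 of 4 anaphase genes were lower with FOXA1 siRNA in DMSO. The same held for 3 of 7 kinesins, 2 of 6 condensin and topoisomerase genes and 3 of 9 spindle genes. Over all genes 21.3% were called lower, and with the replicate block 30.2% were lower and 30.3% higher. Roles of so few genes were not tested against these shares. Of the 3 checkpoint genes 0 passed by edgeR and 0 by DESeq2, with 1 at an unadjusted p under 0.05, and 2 were lower with the replicate block, BUB1B (edgeR adjusted p = 0.0219) and MAD2L1 (0.0101). The block also gave 6 lower kinases, 5 kinesins, 4 condensin and topoisomerase genes, 7 spindle genes and all 4 anaphase genes, and it added CENPF and SMC2 to the higher genes.

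Among the kinesins, KIF14 (-0.74 ± 0.11) and KIF20A (-0.64 ± 0.08, edgeR adjusted p = 0.000381) fell, and KIF18A was at -0.04 ± 0.10 (0.762). CENPE (-0.61 ± 0.05), CDC20 (-0.58 ± 0.07) and CDC25B (-0.53 ± 0.06) also fell. Without replicate 2, 45 genes were lower and 2 higher, against 28% and 27.4% of all genes, and with the replicate block 45 and 4, against 30.2% and 30.3%. In one model of all 12 samples 16 genes were lower and 0 higher, against 22.7% and 21.4% of all genes. The count of lower genes was 20 without NT DMSO replicate 1 and 21 without FOXA1 DMSO replicate 3, and 20 of the 35 calls were kept with each sample left out in turn.

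The fourth comparison set FOXA1 siRNA against NT siRNA under lapatinib. Here the direction turned: 12 of the 56 genes were higher and 1 was lower, with a median log2 fold change of 0.25, against 22.7% of all genes higher, 22.2% lower and a median of -0.01. In this fit, which leaves out the replicate number, the share called higher was thus no larger than over all genes. With the replicate block it was larger, with 36 genes higher against 30.6% of all genes. The higher genes were CDK1 (1.07 ± 0.17, edgeR adjusted p = 0.00119), HMMR (1.07 ± 0.21, 0.00365), PLK1 (0.97 ± 0.29, 0.0255), UBE2C (0.90), NUSAP1 (0.88), TOP2A (0.81), NEK2 (0.73), MAD2L1 (0.67), ECT2 (0.51), SMC2 (0.47), ZWINT (0.30) and BUB3 (0.21). The lower gene was CCNA2 (-0.84 ± 0.20, edgeR adjusted p = 0.0101).

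These calls depended on the samples. With replicate number as a blocking term 36 genes were higher and 7 lower, against 30.6% and 31.1% of all genes, and the 6 other genes lower with the block were CDC25B, CENPE, KIF14, KIF20A, FOXM1 and MYBL2. Without replicate 2 in both groups 35 were higher and 5 lower, against 25.6% of all genes each way. In one model of all 12 samples 19 were higher and 3 lower, against 24% and 22.4% of all genes. Of single samples, leaving out NT lapatinib replicate 2 gave 34 higher genes, and leaving out NT lapatinib replicate 1 or 3 or FOXA1 lapatinib replicate 2 gave 6, 5 and 7. The 6 calls kept in each of these fits were those of CDK1, UBE2C, ZWINT, SMC2, HMMR and CCNA2. Shares over all genes are not given for fits without a single sample.

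Against control, the combined group had 51 of the 56 genes lower and 1 higher, with a median log2 fold change of -1.02, against 32.5% of all genes lower and 33.9% higher. Without replicate 2 the count of lower genes was 55, against 36.2% of all genes. The higher gene was HMMR (0.49 ± 0.13, edgeR adjusted p = 0.00965). MYBL2 (-3.69 ± 0.15), SPC24 (-2.66 ± 0.21), SPC25 (-2.58 ± 0.21) and CCNA2 (-2.44 ± 0.14) had the largest falls. PLK1 (-0.30 ± 0.15, edgeR adjusted p = 0.107), NEK2 (-0.35, 0.0770), CENPF (-0.14, 0.356) and CDC25C (-0.14, 0.476) did not pass the test. This comparison shares the control samples with 2 of those above.

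The last comparison asked whether the lapatinib response itself differed between the siRNAs, by an interaction term fitted on all 12 samples. The difference, the response with FOXA1 siRNA minus that with NT siRNA, was above 0 for each of the 56 genes, with a median of 0.60 on the log2 scale and a range of 0.08 (CENPE) to 1.50 (CDK1). Of all 14012 genes tested 51.1% were above 0, with a median of 0.01. The values of the 56 genes are not independent, since the genes share the same samples.

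The difference passed the test for 6 of the 56 genes, against 3.99% of all genes called higher. They were CDK1 (1.50 ± 0.25, edgeR adjusted p = 0.00457), UBE2C (1.27 ± 0.27, 0.0153), NCAPH (1.04 ± 0.29, 0.0471), MAD2L1 (0.86 ± 0.20, 0.0251), INCENP (0.73 ± 0.18, 0.0276) and ZWINT (0.64 ± 0.15, 0.0227). With replicate number as a blocking term 22 genes passed, against 11.1% of all genes, and without replicate 2 in the 4 groups 52 passed, against 10.3%. Among the genes gained with the block were PLK1 (0.0464), TOP2A (0.0379), NUSAP1 (0.0156) and PRC1 (0.0201, all edgeR adjusted p). Leaving out NT lapatinib replicate 2 alone gave 39, and leaving out other single samples gave between 2 and 11. For these fits the share over all genes is not given. CDK1 and UBE2C passed with each of the 12 samples left out in turn.

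**Figure D5:**
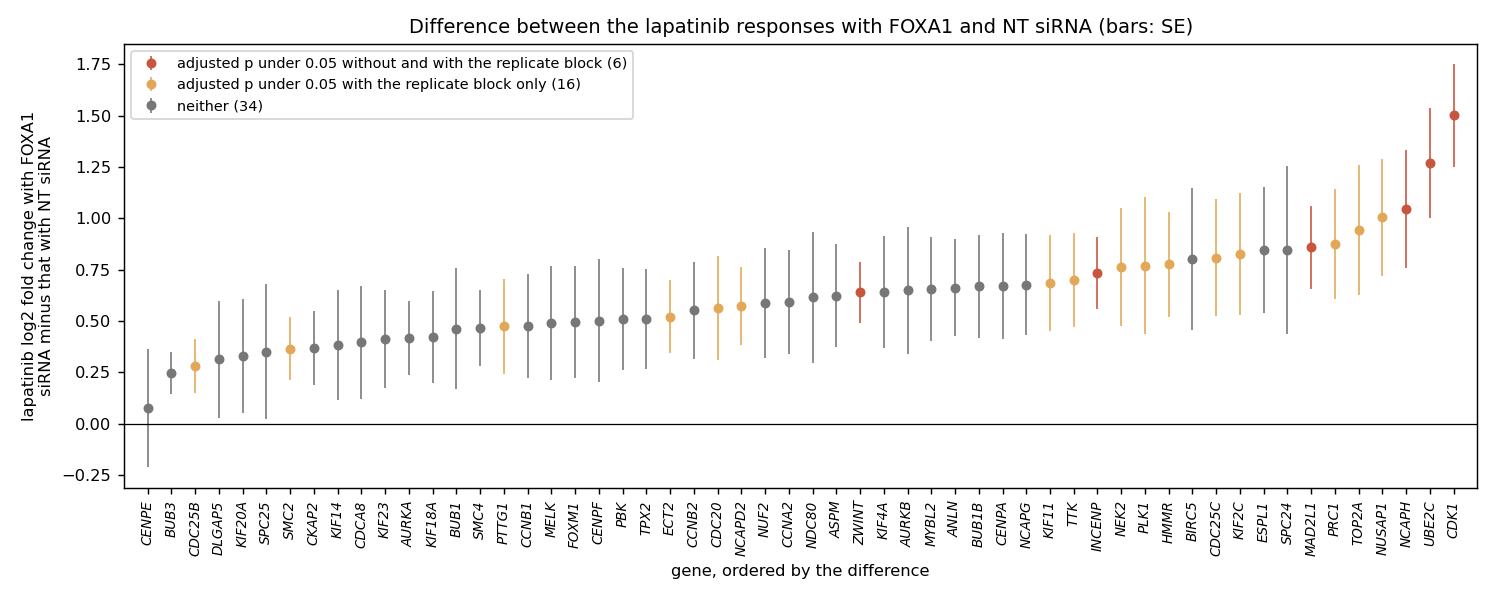
Lapatinib log2 fold change with FOXA1 siRNA minus that with NT siRNA for the 56 genes, ordered by the difference, with bars for the SE and colors for the tests passed. All 56 differences are above 0, from 0.08 for CENPE to 1.50 for CDK1, and 6 genes pass the test without the replicate block and 22 with it.

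Within each replicate number the pattern was of the same direction and of different size. The median response of the 56 genes to lapatinib with NT siRNA was -1.74, -0.73 and -1.51 in replicates 1, 2 and 3, and with FOXA1 siRNA -0.86, -0.33 and -0.80, on the log2(normalized count + 1) scale. The response lay above that with NT siRNA for 56, 53 and 56 of the 56 genes, against 52.0%, 50.4% and 51.7% of all genes. In DMSO, FOXA1 siRNA was below NT siRNA for 51, 45 and 53 genes, and under lapatinib it was above for 48, 39 and 42. Replicate 2 thus had the smallest response to the drug with both siRNAs, and what sets it apart was not tested.

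By role, the median difference of the responses was 0.58 for the mitotic kinases, 0.60 for the centromere and kinetochore genes, 0.42 for the kinesins and 0.62 for condensin and topoisomerase. It was highest for the passenger subunits (0.73) and the anaphase genes (0.70). By edgeR 0 of the 8 kinases and 0 of the 7 kinesins passed the interaction test, while 4 kinases and 3 kinesins had an unadjusted p under 0.05, and DESeq2 called 1 of each. CDK1, also a kinase but counted here with the cyclins, did pass (1.50, edgeR adjusted p = 0.00457). With the replicate block 3 kinases (PLK1, TTK and NEK2) and 2 kinesins (KIF2C and KIF11) passed. Over all genes 3.99% were called higher by edgeR, and 11.1% with the block.

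Other genes of the pathway were taken from lists by function. Of 67 other mitosis genes, 63 were lower and 1 was higher after lapatinib with NT siRNA (median -1.40), and 58 were lower with FOXA1 siRNA (median -0.87). Over all genes 29.2% were called lower and 30.5% higher with NT siRNA, and 29.1% lower with FOXA1 siRNA. With the replicate block 2 were higher with NT siRNA. The lowest were ESCO2, a cohesin acetyltransferase (log2 fold change -2.90 ± 0.20, edgeR adjusted p = 1.04e-05), and CDC25A, the phosphatase of the G1/S transition (-2.73 ± 0.14, 3.27e-06). The highest were WEE1, the kinase that holds CDK1 inactive (0.39 ± 0.08, edgeR adjusted p = 0.00353), and PMF1, a kinetochore protein (0.15 ± 0.08, 0.129).

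The core subunits of the anaphase-promoting complex, listed with its activator FZR1, and the cohesin genes had medians nearer 0. Of the 14 genes listed for the complex 7 were lower and 1 was higher after lapatinib with NT siRNA (median -0.21), against 29.2% and 30.5% of all genes. ANAPC1 (-0.64 ± 0.08) and CDC27 (-0.56 ± 0.06) were the lowest, and ANAPC16 (0.42 ± 0.05) and ANAPC2 (0.16 ± 0.06, edgeR adjusted p = 0.0512) the highest. With the replicate block 2 were higher. Of 11 cohesin and loader genes 4 were lower and 3 were higher (median 0.10), where 29.2% and 30.5% of all genes were. The lowest were SMC1A (-0.89 ± 0.11) and SMC3 (-0.32 ± 0.08), both ATPases of the ring, and the highest the loader subunit MAU2 (0.65 ± 0.05) and STAG2 (0.56 ± 0.06). Thus the activator CDC20 and the enzyme UBE2C fell by more than any of the 14 genes listed for the complex. Separase fell by more than any of the 11 cohesin and loader genes. The cohesin acetyltransferase ESCO2, listed above with the other mitosis genes, fell by more than separase. A list of 7 genes held the MuvB core, E2F4 and TFDP1, which encodes a dimer partner of E2F factors. Of these, 6 were lower (median -0.79), against 29.2% of all genes. TFDP1 (-1.12 ± 0.06) and LIN52 (-1.08 ± 0.15) were the lowest, and LIN37 (0.18 ± 0.11, edgeR adjusted p = 0.187) and RBBP4 (-0.28 ± 0.07) the highest.

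DNA replication genes, taken for comparison, had a lower median. After lapatinib with NT siRNA 39 of 40 were lower and 1 was higher (median -1.85), against 29.2% and 30.5% of all genes. With FOXA1 siRNA 40 of 40 were lower (median -1.40), against 29.1% of all genes. With NT siRNA the lowest were MCM10 (-5.20 ± 0.21), a replication initiation factor, and UHRF1 (-3.74 ± 0.12), which maintains DNA methylation, and the highest were CHAF1B (0.43 ± 0.08), a chromatin assembly subunit, and PRIM1 (-0.84 ± 0.13), a primase subunit. Under lapatinib, FOXA1 siRNA left 7 of the 40 higher and 7 lower, with a median of 0.01, and 12 higher and 12 lower with the replicate block. These counts were no larger a share than over all genes, 22.7% higher and 22.2% lower, and 30.6% and 31.1% with the block. The median difference of the DNA replication genes between the lapatinib responses was 0.51, with 38 of 40 genes above 0, against 0.60 and 56 of 56. Whether the 2 lists differ was not tested.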

How the data were processed

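RNA of SKBR-3 cells was sequenced in 4 groups of 3 samples, grouped by the labels. Per the study's methods the reads were aligned to hg38 with STAR and quantified with Salmon, whereas the column names in the files are RSEM's. The submitters' processing notes name RSEM, DESeq2 1.12.3 and R 3.2.2. The authors deposited an expected count (an estimated number of reads) and a TPM for each of 20531 genes and each sample, not pooled. The notes name both a stranded and an unstranded library kit, and use of strand in counting is not given in the sources used here, so overlapping and antisense genes are uncertain.

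Expected counts were rounded and tested with edgeR 4.0.16 in R 4.3.3 (TMM normalization, quasi-likelihood test, genes reaching 10 counts in 1 or more of the samples fitted, Benjamini-Hochberg adjustment over all genes tested, calls at an adjusted p under 0.05). Comparisons of 2 groups used their 6 samples, and the interaction all 12. The SE was computed from the log2 fold change and its F statistic. The deposited TPM served for levels between genes. The tests were checked on simulated data. Those counts were drawn independently for each sample with no effect of the replicate number, so the check does not cover the replicate pattern seen here. Python 3.11.15 with pandas 2.3.3 and matplotlib 3.10.9 made the tables and plots. Libraries held between 25749578 and 32271850 expected counts, and rounding and PCR copies are not covered by any error given. The labels do not say that replicates were separate cultures, so p-values measure only the spread between these samples.

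The 56 genes and all lists were chosen with earlier results of these data known. All 56 may be named. Full values are given for 29 genes spread over the roles, for the extremes of each comparison and for genes past the interaction test, and of each pathway list the 2 lowest and 2 highest after lapatinib with NT siRNA are named.

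Samples that share a replicate number showed like deviations from the means of their groups over 10052 genes. Their correlation was between 0.32 and 0.727 in 18 pairs, with a mean of 0.483, so the numbers pair the samples. The mean of -0.222 for other numbers adds nothing to this, because deviations cancel out within a group. For 54 of the 56 genes replicate 2 was lowest in control, and for 54 highest with lapatinib. A block does not capture such a difference. The pairing comes from the replicate numbers in the labels and from this check. The fit with the replicate number as a block is given beside a result where it changes a call. The alternatives were RLE and upper-quartile scaling, DESeq2 1.42.0, other filters on low counts, an adjusted p under 0.01, a log2 fold change of at least 1, all 12 samples in one model, the block, each sample left out and, chosen after seeing the data, replicate 2 left out of all groups.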

Additional observations from a re-analysis of the deposited data

Results flagged for a closer look

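The lapatinib response differed between the siRNAs, by the interaction test of edgeR, for 6 of the 56 mitotic genes, each with a smaller fall when FOXA1 siRNA was present. The difference on the log2 scale was 1.50 for CDK1 (edgeR adjusted p = 0.00457), 1.27 for UBE2C (0.0153), 1.04 for NCAPH (0.0471), 0.86 for MAD2L1 (0.0251), 0.73 for INCENP (0.0276) and 0.64 for ZWINT (0.0227). In CDK1, UBE2C, MAD2L1 and ZWINT all combined samples lay above all lapatinib samples, whereas in INCENP and NCAPH these groups overlapped. The vehicle mean of INCENP was 1592 counts with FOXA1 siRNA and 2447 in control, so a smaller fall need not be a higher level under the drug. With single samples left out, CDK1 and UBE2C kept their call in all 12 fits, and the other 4 lost it in at least 1 of them, NCAPH without any sample other than NT DMSO replicate 2 and NT lapatinib replicate 2. Groups of 3 samples are too small for the search for outlying samples.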

How the results depend on the processing

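RLE scaling, upper-quartile scaling and both other filters on low counts left each count of called genes within 1.5 times its value. Under no alternative did a followed gene go from a call as lower to a call as higher, or the reverse. Changes near zero and not called could differ in sign between fits. The replicate block gave 2 higher genes after lapatinib with FOXA1 siRNA, 4 higher with FOXA1 siRNA in DMSO, 36 higher and 7 lower with FOXA1 siRNA in lapatinib and 22 higher for the interaction, and it ended no call of the 56 genes. Over all genes the block called 4741 of 13745, 4150 of 13694, 4200 and 4269 of 13727 and 1561 of 14012 in that order. DESeq2 gave 2 higher after lapatinib with FOXA1 siRNA, against 3713 of all 13745 genes. It gave 3 lower with FOXA1 siRNA in lapatinib, against 2890 of 13727, and 15 for the interaction, against 821 of 14012. One model of all 12 samples gave 16 lower and 0 higher with FOXA1 siRNA in DMSO, against 22.7% and 21.4% of all genes. In lapatinib it gave 19 higher and 3 lower, against 24% and 22.4%. An adjusted p under 0.01 gave 0 higher after lapatinib with FOXA1 siRNA, 19 lower and 0 higher with FOXA1 siRNA in DMSO, 4 higher and 0 lower in lapatinib, and 1 for the interaction. A log2 fold change of at least 1 left 13 lower and 0 higher after lapatinib with FOXA1 siRNA, 2 lower and 0 higher in DMSO, 2 higher and 0 lower in lapatinib, 30 lower and 0 higher for the combined group against control, and 3 for the interaction. Over all genes the same rule left 704 of 13745 lower and 678 higher, and in DMSO 380 of 13694 lower and 556 higher. In lapatinib it left 619 of 13727 higher and 535 lower. For the combined group it left 1200 of 13813 lower and 1376 higher, and for the interaction 73 of 14012 higher. With samples left out, counts of lower genes ran from 50 to 55 (lapatinib, NT siRNA), 37 to 53 (lapatinib, FOXA1 siRNA), 20 to 45 (FOXA1 siRNA in DMSO), 1 to 5 (in lapatinib) and 47 to 55 (combined), and of higher genes from 0 to 0, 1 to 2, 0 to 2, 5 to 35 and 1 to 1 in that order, and from 2 to 52 for the interaction. Without replicate 2 in all groups, FOXA1 siRNA in lapatinib gave 35 higher and 5 lower, against 25.6% of all genes each way. The interaction then gave 52, against 10.3%. Shares over all genes are not given for an adjusted p under 0.01 or with a single sample left out. Stricter thresholds cannot give more calls, by construction. Leaving out samples moved the counts both ways, up as well as down. Why the counts moved with the samples and the model was not tested. With 3 samples a group an exact permutation test cannot go below p = 0.1.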
